A study of Caenorhabditis elegans with 8 samples.

Results

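The 8 genes described here encode the enzymes that *C. elegans* uses against superoxide and hydrogen peroxide, namely the 3 catalase genes *ctl-1*, *ctl-2* and *ctl-3* and the 5 superoxide dismutase genes *sod-1*, *sod-2*, *sod-3*, *sod-4* and *sod-5*. They were chosen by gene symbol, and all 8 were found among the 17521 genes of the deposited RNA sequencing table. RNA was taken from whole N2 worms, the wild-type laboratory strain, with no transgene or mutation. One group of 4 samples was treated with 50 μM atracurium, a muscle relaxant that blocks the acetylcholine receptor at the neuromuscular junction, and the other group of 4 samples was given the water vehicle. Both groups were treated for 24 h from larval stage 4 and were collected at day 1 of adulthood with about 1000 worms per sample. For growth and treatment the study's methods refer back to its other worm assays. The plates of its lifespan assays also held 5-fluorouracil, used to prevent egg hatching. The comparison asks whether worms treated with atracurium express these enzymes at other levels than untreated worms, since several of them are known targets of the FOXO transcription factor DAF-16.

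Superoxide is formed mainly as a by-product of mitochondrial respiration. Superoxide dismutases turn it into hydrogen peroxide and oxygen, and catalases split the hydrogen peroxide into water and oxygen. Worms have Cu/Zn superoxide dismutases in the cytosol (*sod-1*, the main one, and *sod-5*) and outside the cell or at its surface (*sod-4*), and Mn superoxide dismutases in the mitochondrial matrix (*sod-2*, the main one, and *sod-3*). *ctl-1* encodes a cytosolic catalase and *ctl-2* a peroxisomal one, and *ctl-3* is their paralog. A *sod-3* reporter is widely used to read DAF-16 activity, and *sod-3*, *sod-5* and catalase genes are known to be high in dauer larvae or in mutants of the insulin receptor gene *daf-2*.

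Between 27922986 and 60015200 reads fell on the genes of the table in each sample, the highest being water replicate 2. Among the atracurium samples, replicate 2 stood apart on the first principal component (29.9% of the variance), at 77.5 against −5.30 to 6.85 for the other atracurium samples and −23.6 to −14.5 for the water samples. The samples also differed by a trend with exonic length. The slope of a sample's log2 deviation from the mean of all samples, per doubling of exonic length, was 0.04, 0.208, 0.0043 and −0.02 in atracurium replicates 1 to 4, against −0.03, −0.106, −0.05 and −0.05 in water replicates 1 to 4. Every atracurium slope lay above every water slope, so the length trend went with the treatment. Over 17493 genes, the Spearman correlation of log2 fold change with exonic length was 0.423. Markers of intestine, body wall muscle, sperm, oocytes, epidermis and neurons all had reads in every sample, so the libraries hold the tissues of whole adults. The summed intestinal markers (8 of 8 listed genes measured) reached 20347 to 23777 counts per 1000000 reads (CPM) with atracurium and 17944 to 20963 CPM in the water vehicle. Nearly all of this sum came from the yolk protein genes *vit-2* (9595 to 11207 CPM with atracurium, 8414 to 9812 CPM in the water vehicle) and *vit-6* (9923 to 11711 CPM with atracurium, 8867 to 10294 CPM in the water vehicle). Over the 8 intestinal markers the median log2 fold change was 0.16, or 0.10 with the length trend removed. The sperm markers (7 of 8) were at 16.6 to 27.4 CPM with atracurium and at 28.7 to 35.6 CPM in the water vehicle. In whole worms, fewer cells of a type and less RNA per cell cannot be told apart. The part of the length trend or of these tissue markers in the differences below was not tested, except where a value with the length trend removed is given.

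The 3 catalase genes had higher mean log2 CPM with atracurium, and 4 of the 5 superoxide dismutase genes did not, although for *sod-5*, with few reads, the ratio of reads was above 1. Log2 fold changes were 0.29 for *ctl-1*, 0.18 for *ctl-2* and 0.79 for *ctl-3*, which are 1.22-fold, 1.13-fold and 1.73-fold. Among the dismutases, *sod-3* had a fold change of 1.29, and *sod-1*, *sod-2*, *sod-4* and *sod-5* had log2 fold changes between −0.24 and −0.04. This split between the classes was not kept with the length trend removed. The log2 fold change was then 0.08 for *sod-1*, 0.02 for *sod-2* and 0.11 for *sod-5*, and only *sod-4* stayed negative (−0.22). By limma-trend none of the 8 genes passed an adjusted p of 0.05, where 0.177% of all genes tested did (31 of 17521). At an unadjusted p of 0.05, which was not one of the set thresholds, 3 of the 8 were higher, the 3 catalases, against 4.91% of all genes. At an unadjusted p of 0.01 only *ctl-3* was, against 1.20% of all genes. With limma-voom on the recovered reads, the test used in the study, *ctl-1* joined *ctl-3* at this cutoff, where 1.34% of all genes were called higher, and none of the 8 passed an adjusted p of 0.05. *ctl-1* and *ctl-3* had been singled out in the study from these same samples, so their place among the higher genes is not independent evidence. The fold changes and their intervals are plotted for the 8 genes.

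**Figure D1:**
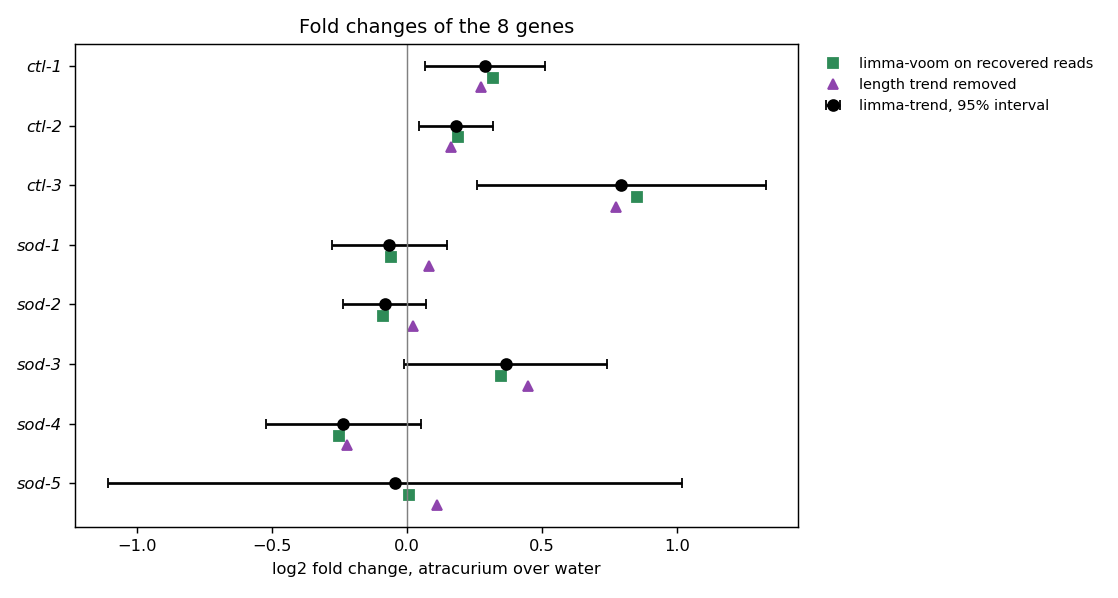
Log2 fold changes of the 8 genes on the x axis, atracurium over water, with the limma-trend estimate and its 95% interval (black), limma-voom (green squares) and limma-trend after removal of the length trend (purple triangles). The intervals of the 3 catalase genes lie above 0, and those of the 5 superoxide dismutase genes include 0.

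The catalase genes lie side by side on the minus strand of chromosome II of WBcel235, in the order *ctl-2* (WBGene00000831; 14299556 to 14302027), *ctl-1* (WBGene00000830; 14303568 to 14306260) and *ctl-3* (WBGene00013220; 14307798 to 14310779). Gaps of 1540 and 1537 bases part them, and the whole cluster spans 11224 bases. Their exonic lengths are close, at 1611, 1554 and 1631 nt. All 3 are annotated as protein-coding. As tandem paralogs they may share reads, and reads that matched more than one of them were not counted under the default settings of the counting program, so that the level of each could be understated.

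*ctl-2*, the peroxisomal catalase, carried most of the catalase reads. Its log2 CPM was 5.62, 5.63, 5.51 and 5.61 in atracurium replicates 1 to 4, against 5.35, 5.35, 5.44 and 5.50 in water replicates 1 to 4. The groups did not overlap, but the gap was narrow, with atracurium replicate 3 at 5.514 and water replicate 4 at 5.502. By limma-trend this is a log2 fold change of 0.18 with a 95% interval from 0.04 to 0.32 (standard error 0.06, adjusted p = 0.345). An exact permutation test over the 8 samples gave p = 0.029, and no smaller p can be had with 4 samples in each group. Counts behind each value ran from 1421 to 1717 reads with atracurium and from 1211 to 2513 reads in the water vehicle.

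*ctl-1*, the cytosolic catalase, was lower in level but showed a similar picture. Its log2 CPM was 3.72, 3.56, 3.55 and 3.70 in atracurium replicates 1 to 4, against 3.28, 3.15, 3.48 and 3.45 in water replicates 1 to 4. Here too every atracurium sample lay above every water sample. The 95% interval of its log2 fold change ran from 0.07 to 0.51, with adjusted p = 0.345 by limma-trend and p = 0.029 by the exact permutation test. *ctl-1* and *ctl-2* were the 2 of the 8 genes whose groups did not overlap, both higher with atracurium, where 3.41% of all genes were separated in that direction.

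*ctl-3* had the largest fold change of the 8 genes and varied more between samples of one group than the other catalases. Its log2 CPM was 2.56, 3.05, 3.62 and 3.07 in atracurium replicates 1 to 4, against 2.01, 1.92, 2.22 and 2.97 in water replicates 1 to 4. Water replicate 4 lay within the range of the atracurium samples, and the other 3 water samples lay below all of them. The SD was 0.43 with atracurium and 0.48 in the water vehicle (n = 4 each), against 0.09 and 0.15 for *ctl-1* and 0.05 and 0.07 for *ctl-2*. On the log2 scale *ctl-3* differed by 0.79 (95% interval 0.26 to 1.33, standard error 0.25), with adjusted p = 0.301 by limma-trend and p = 0.057 by the exact permutation test. It was 0.61 without atracurium replicate 3, the highest sample, and 1.02 without water replicate 4, with adjusted p values of 0.380 and 0.154 by limma-trend.

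**Figure D2:**
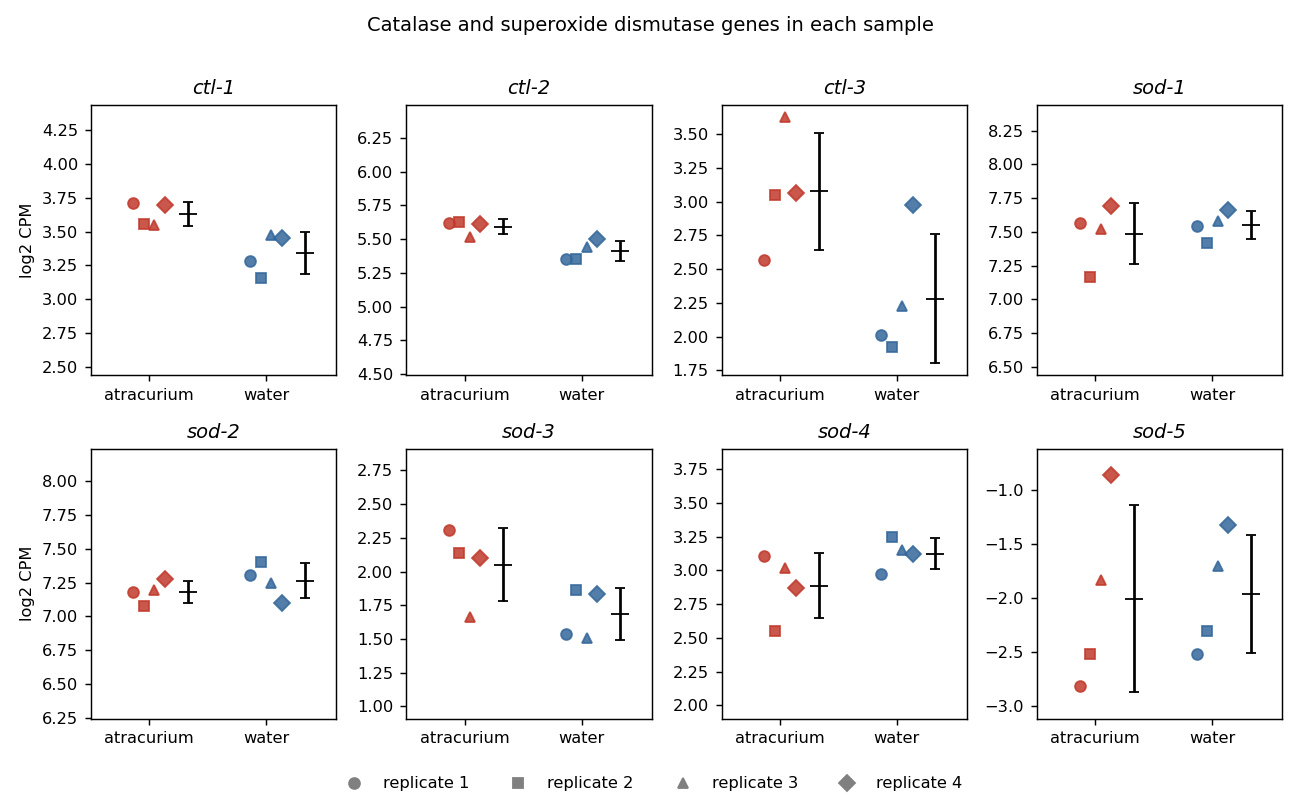
Log2 CPM (y axis) of each gene in each sample, atracurium in red and water in blue, with marker shapes for replicates 1 to 4 and the mean ± SD (n = 4) in black. Each y axis spans 2 log2 units, except 2.5 for *sod-5*. The groups do not overlap for *ctl-1* and *ctl-2* and overlap in the other 6 genes.

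In the sum over the 3 catalase genes, the atracurium samples were closely alike. The sum was 68.0, 69.4, 69.6 and 70.02 CPM in atracurium replicates 1 to 4, against 54.4, 53.4, 59.0 and 63.9 CPM in water replicates 1 to 4. This is 69.2 ± 0.88 CPM with atracurium and 57.7 ± 4.84 CPM in the water vehicle (SD, n = 4 each), with no overlap. No test was made of a sum over chosen genes. Within it, atracurium replicate 3 had the least *ctl-2* of its group (45.6 CPM) and the most *ctl-3* (12.3 CPM).

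**Figure D3:**
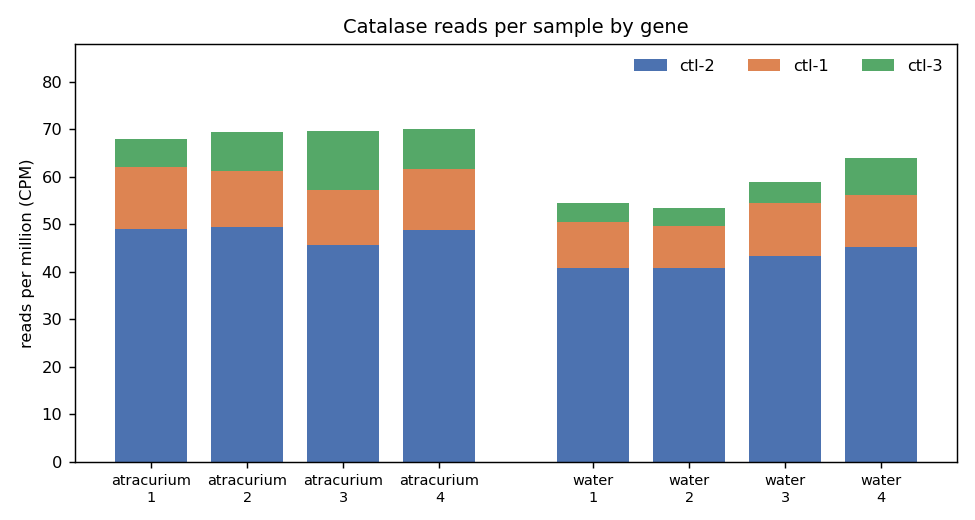
CPM (y axis, from 0) of *ctl-2*, *ctl-1* and *ctl-3*, stacked, in each of the 4 atracurium and 4 water samples. The 4 atracurium bars end between 68.0 and 70.02 CPM and the 4 water bars between 53.4 and 63.9 CPM.

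By share of the catalase reads, *ctl-2* made up 69.7% ± 2.90 with atracurium and 73.9% ± 2.40 in the water vehicle (SD, n = 4 each). *ctl-1* held 17.8% ± 1.22 with atracurium and 17.5% ± 0.969 in the water vehicle, so that its part was nearly the same in both groups. For *ctl-3* it was 12.5% ± 3.75 with atracurium and 8.57% ± 2.43 in the water vehicle. The highest share of *ctl-3*, 17.6% in atracurium replicate 3 (95% exact binomial interval 16.1 to 19.3), and the next, 12.2% in water replicate 4 (10.7 to 13.8), came from different groups. The ratio of *ctl-3* to *ctl-1* reads was 0.448, 0.701, 1.05 and 0.644 in atracurium replicates 1 to 4, against 0.410, 0.422, 0.416 and 0.715 in water replicates 1 to 4. In 3 water samples this ratio was therefore nearly fixed, and it was higher in water replicate 4 and in atracurium replicates 2, 3 and 4. Atracurium replicate 1, at 0.448, lay close to those water samples. No interval was made for these ratios, so it is not set apart from them.

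*sod-3* (WBGene00004932; chromosome X from 17092753 to 17094306, plus strand) was the one dismutase with a higher mean log2 CPM with atracurium. Its log2 CPM was 2.30, 2.13, 1.67 and 2.103 in atracurium replicates 1 to 4, against 1.54, 1.87, 1.51 and 1.84 in water replicates 1 to 4. The 3 highest samples were atracurium samples, while atracurium replicate 3 lay between the water samples. Reads per sample were 97 to 171 with atracurium and 78 to 221 in the water vehicle. By limma-trend its log2 fold change of 0.37 had a 95% interval from −0.01 to 0.74 (standard error 0.17, adjusted p = 0.441), with p = 0.086 by the exact permutation test. Without atracurium replicate 3 it was 0.49 (adjusted p = 0.339 by limma-trend), and without atracurium replicate 1, the highest sample, 0.28 (adjusted p = 0.622 by limma-trend). Atracurium replicate 3 was thus the highest sample for *ctl-3* and the lowest of its group for *sod-3*.

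The other Mn dismutase, *sod-2* (WBGene00004931; chromosome I from 8434550 to 8435807, plus strand), supplies most of the mitochondrial enzyme. It had a log2 CPM of 7.18, 7.08, 7.20 and 7.28 in atracurium replicates 1 to 4, against 7.31, 7.41, 7.25 and 7.10 in water replicates 1 to 4. The lowest sample was an atracurium sample and the next a water sample, so that the groups overlapped. The 95% interval of its fold ran from 0.849 to 1.05 (adjusted p = 0.648 by limma-trend). The gene lies within the span of *dpt-1* on the opposite strand, with which it shares 21 bases of exon, and reads were counted by strand. The ratio of *sod-3* to *sod-2* reads averaged 0.0286 ± 0.00559 with atracurium and 0.0208 ± 0.00354 in the water vehicle (SD, n = 4 each).

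*sod-1* (WBGene00004930; chromosome II from 6972706 to 6973887, minus strand) was the most highly expressed of the 8 genes. Its log2 CPM was 7.57, 7.17, 7.52 and 7.69 in atracurium replicates 1 to 4, against 7.54, 7.42, 7.58 and 7.66 in water replicates 1 to 4. Atracurium replicate 2, the sample with the steepest length slope, was the lowest, and the other 3 lay within or just above the range of the water samples. The log2 fold change of −0.07 (adjusted p = 0.807 by limma-trend) became 0.04 without that sample and 0.08 after removal of the length trend, so no direction can be given. Its 95% interval allows a fold from 0.825 to 1.11. *sod-1* (720 nt), *sod-2* (802 nt) and *sod-5* (706 nt) have the shortest exonic lengths of the 8 genes, and *sod-2* also had a positive value, 0.02, with the length trend removed.

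*sod-4* (WBGene00004933; chromosome III from 9496884 to 9500375, minus strand; exonic length 1306 nt), the extracellular enzyme, had the most negative fold change. Its log2 CPM was 3.10, 2.55, 3.02 and 2.87 in atracurium replicates 1 to 4, against 2.97, 3.25, 3.15 and 3.12 in water replicates 1 to 4. The highest 3 samples were water samples, and atracurium replicates 1 and 3 lay inside the water range. By limma-trend its log2 fold change of −0.24 had a 95% interval from −0.52 to 0.05 (standard error 0.13, adjusted p = 0.491). Without atracurium replicate 2 it was −0.12 (adjusted p = 0.739 by limma-trend).

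*sod-5* (WBGene00007036; chromosome II from 4417633 to 4419130, plus strand), known from dauer larvae, was barely expressed. It had 3, 4, 7 and 16 reads in atracurium replicates 1 to 4, against 4, 9, 7 and 10 reads in water replicates 1 to 4. Both groups held 30 reads in all, a ratio of 1.15 after scaling to library size (95% exact binomial interval 0.672 to 1.98, counting error only). The interval from the spread between samples was wider, with a fold of 0.464 to 2.03 around 0.970 (adjusted p = 0.982 by limma-trend), so a difference within these limits was not detectable.

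Levels were compared between genes as RPKM, reads per kilobase of exon and per 1000000 reads, because longer transcripts yield more reads. Over all 8 samples the order was *sod-1* (mean 256, range 199 to 287), *sod-2* (187, 169 to 212), *ctl-2* (28.2, 25.3 to 30.7), *ctl-1* (7.23, 5.69 to 8.42), *sod-4* (6.17, 4.45 to 7.24), *ctl-3* (4.20, 2.29 to 7.52), *sod-3* (4.16, 3.17 to 5.54) and *sod-5* (0.316, 0.121 to 0.701). *sod-1* lay above *sod-2*, *sod-2* above *ctl-2*, *ctl-2* above *ctl-1* and *sod-3* above *sod-5* in 8 of 8 samples. *ctl-1* was above *sod-4* in 7 of 8 samples, *sod-4* above *ctl-3* in 6, and *ctl-3* above *sod-3* in 4, so these neighbours were not set apart beyond their spread. By treatment, *ctl-3* averaged 5.31 ± 1.63 with atracurium and 3.08 ± 1.15 in the water vehicle, and *sod-4* averaged 5.68 ± 0.913 with atracurium and 6.65 ± 0.529 in the water vehicle (SD, n = 4 each). Summed over the 5 dismutases, CPM were 348, 289, 341 and 374 in atracurium replicates 1 to 4, against 356, 354, 355 and 352 in water replicates 1 to 4. Atracurium replicates 2 and 4 gave the lowest and highest values, and the water samples were nearly equal.

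**Figure D4:**
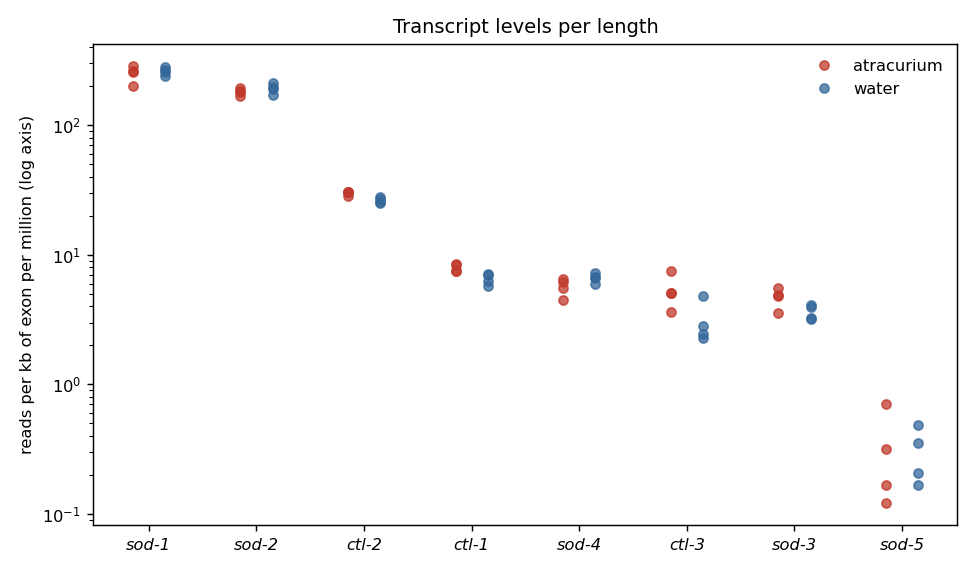
RPKM (y axis, log scale) of the 8 genes in the order of their mean over all samples, with a point for each atracurium (red) and water (blue) sample. *sod-1* and *sod-2* lie between 169 and 287, and *sod-5* lies between 0.121 and 0.701.

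The direction of the catalase differences was the same with any single sample left out. For *ctl-1* and *ctl-2*, whose groups did not overlap, leaving out a sample could not have changed it. With each of the 8 samples left out in turn, the log2 fold change was 0.23 to 0.33 for *ctl-1*, 0.16 to 0.21 for *ctl-2*, 0.61 to 1.02 for *ctl-3* and 0.28 to 0.49 for *sod-3*. Over 18 alternatives of samples, scaling and test, including the removal of the length trend, the unadjusted p was below 0.05 in 17 for *ctl-1*, 17 for *ctl-2*, 18 for *ctl-3* and 6 for *sod-3*. It was below 0.01 in 3 for *ctl-1*, 1 for *ctl-2*, 11 for *ctl-3* and 0 for *sod-3*. The 7 alternatives in which *ctl-3* missed 0.01 were the fit without the mean-variance trend, the stricter filter and those without atracurium replicate 3 or 4 or without water replicate 1, 2 or 3. None of the 18 alternatives gave an adjusted p below 0.05. The lowest over all 18 was 0.176 for *ctl-1*, 0.171 for *ctl-2*, 0.133 for *ctl-3* and 0.223 for *sod-3*, by limma. After removal of the length trend the log2 fold change was 0.27 for *ctl-1*, 0.16 for *ctl-2*, 0.77 for *ctl-3* and 0.45 for *sod-3*. All these alternatives are refits of the same 8 samples and are not separate evidence.

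**Figure D5:**
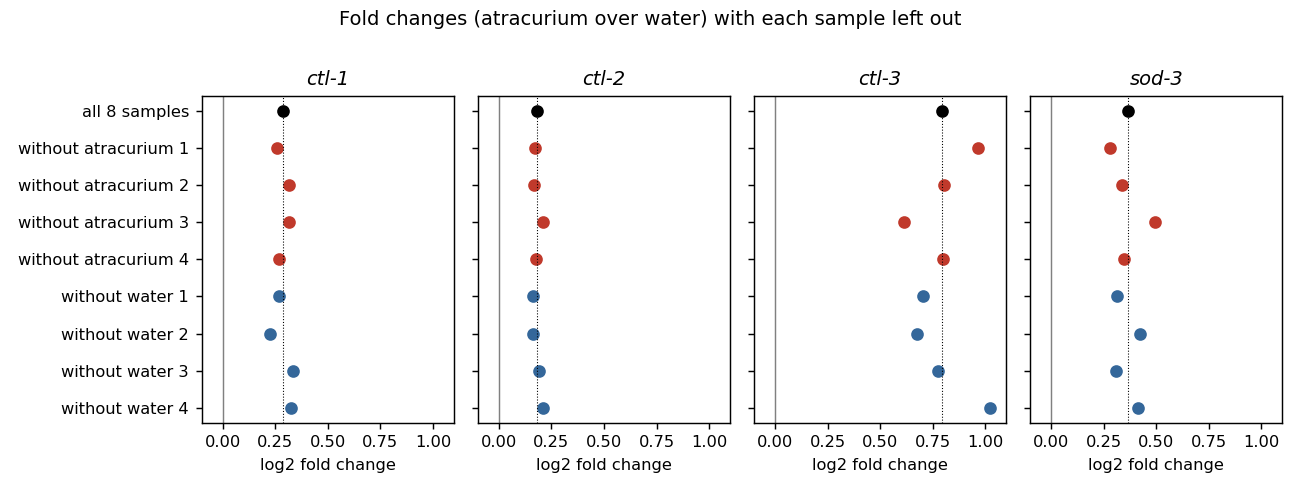
Log2 fold changes (x axis, atracurium over water) of *ctl-1*, *ctl-2*, *ctl-3* and *sod-3* with all 8 samples (black) and with each atracurium (red) or water (blue) sample left out. All points lie above 0, and *ctl-3* moves most, from 0.61 to 1.02.

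The genes that followed each member most closely over the 8 samples were looked up among the 11345 genes with a log2 CPM above 0 in every sample. They share their libraries with the member and are given as a description, with no test. Closest to *ctl-2* was *cpr-1* (Pearson correlation 0.967), which encodes a gut cathepsin B-like protease and is one of the intestinal markers. *cpr-1* had a log2 CPM of 6.56 ± 0.16 with atracurium and 6.11 ± 0.15 in the water vehicle (SD, n = 4 each), and adjusted p = 0.0999 by limma-trend. Its adjusted p was 0.0148 with the length trend removed. For *ctl-1* the closest were *lin-59* (0.991), F31A3.5 (0.970) and T07D3.9 (0.969), and after *cpr-1* those for *ctl-2* were F02H6.1 (0.964) and *egl-3* (0.959), a proprotein convertase gene. *ctl-3* was followed by *nep-26* (0.983), *cla-1* (0.973), which encodes a protein of the synaptic active zone, and *ifp-1* (0.968), and no catalase was among the 3 closest genes of another.

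For *sod-3* the closest gene was *lys-7* (0.944), a lysozyme gene that is itself a known DAF-16 target, and then W02F12.1 (0.938) and W04A8.1 (0.914). The value for *lys-7* was the lowest closest-gene correlation of the 8 members. Even the barely expressed *sod-5* had a higher one, so shared regulation cannot be read from it. *sod-1* went with *sip-1* (0.985), Y66H1A.4 and *trap-4* (both 0.982), *sod-2* with *ulp-3* (0.972), F45C12.17 (0.966) and Y75B8A.31 (0.955), *sod-4* with F08B6.1 (0.989), F53F4.13 (0.983) and *dlc-2* (0.979), and *sod-5* with *tag-243* (0.959), *dnj-30* (0.954) and C07A12.7 (0.927). None of these 24 genes passed an adjusted p of 0.05 by limma-trend on the values as deposited.

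Other enzymes of the same defence were compared by the same fit. At an unadjusted p under 0.01 this fit called 210 of 17521 genes higher (1.20%) and 328 lower. These counts stand beside every list gene named at that cutoff below. Of 28 other antioxidant genes measured (of 29 listed: peroxiredoxins, glutathione peroxidases, thioredoxins, glutaredoxins, enzymes of glutathione synthesis and NADPH supply, *msra-1* and *icl-1*), 1 passed an adjusted p of 0.05, against 0.177% of all genes. Their median log2 fold change was −0.04, against −0.01 over all genes, and 12 of 28 were positive. Removal of the length trend gave a median of 0.04 and 17 of 28 positive. The gene that passed was *icl-1*, which encodes isocitrate lyase of the glyoxylate cycle and does not act on oxidants, with a log2 CPM of 9.05 ± 0.06 with atracurium and 8.69 ± 0.10 in the water vehicle (SD, n = 4 each; adjusted p = 0.0396 by limma-trend, and 0.0828 after removal of the length trend). *msra-1*, a methionine sulfoxide reductase gene, had an unadjusted p under 0.01 in the other direction, with a log2 fold change of −0.28 (adjusted p = 0.254 by limma-trend). It was at −0.11 with the length trend removed and no longer under that cutoff (adjusted p = 0.759 by limma-trend).

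Peroxisomes are where *ctl-2* acts and where acyl-CoA oxidases make hydrogen peroxide during fatty acid oxidation. Of the 7 acyl-CoA oxidase genes, 5 had positive log2 fold changes and none passed an adjusted p of 0.05, with a median of 0.18, or 0.11 with the length trend removed, against −0.01 over all genes. The lowest p was that of *acox-3*, at 0.25 on the log2 scale, with a standard error of 0.08 and adjusted p = 0.311 by limma-trend, and it was at 0.20 with the length trend removed (adjusted p = 0.420 by limma-trend), with an unadjusted p then over 0.01. Of the 11 peroxisome assembly genes, 8 had positive log2 fold changes, with a median of 0.05 (0.10 with the length trend removed), and none had an unadjusted p under 0.01.

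Among the regulators, *daf-16* had a log2 CPM of 6.91 ± 0.16 with atracurium and 6.81 ± 0.07 in the water vehicle, and *skn-1* had 7.91 ± 0.07 with atracurium and 7.82 ± 0.06 in the water vehicle (SD, n = 4 each). Their adjusted p values were 0.613 and 0.511 by limma-trend. All 21 regulators listed had positive log2 fold changes (median 0.09), but only 15 after removal of the length trend (median 0.02), and none passed an adjusted p of 0.05. *wdr-23*, whose product holds SKN-1 in check, was the one with an unadjusted p under 0.01 (log2 fold change 0.15, adjusted p = 0.316 by limma-trend). With the length trend removed it was at 0.07 and not under that cutoff (adjusted p = 0.716 by limma-trend).

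Of the 12 reporter genes of DAF-16 measured (of 13 listed), 2 passed an adjusted p of 0.05, against 0.177% of all genes. Both were higher, namely *icl-1* and the alcohol dehydrogenase gene *sodh-1* (log2 fold change 1.07, adjusted p = 4.24e-07 by limma-trend). The study had named *sodh-1* as higher from these same samples, so its place here is not independent evidence. Apart from these samples, the study also reported *sodh-1* as higher with atracurium by quantitative PCR in N2 worms, which was not examined here. *icl-1* is the same gene that passed in the antioxidant list above. At an unadjusted p of 0.01, the heat shock gene *hsp-16.2* was also higher (1.21, adjusted p = 0.301 by limma-trend). It had 27 to 65 reads with atracurium and 9 to 44 reads in the water vehicle. *cpi-1* (−0.62) and *dod-17* (−0.64) were lower at this cutoff, with adjusted p values of 0.280 and 0.290 by limma-trend. The list was not divided into genes raised and genes lowered by DAF-16, so the signs and their median are no measure of its activity. *cpi-1* was at −0.34 with the length trend removed (adjusted p = 0.144 by limma-trend). Of 11 reporter genes of SKN-1, 1 passed the same threshold, again against 0.177% of all genes, namely *gst-5*, which encodes a glutathione S-transferase (log2 fold change 0.88, adjusted p = 2.63e-04 by limma-trend). *gst-4* was at 0.47 and *gst-13* at −0.23 with an unadjusted p under 0.01 (adjusted p = 0.275 and 0.311 by limma-trend). With the length trend removed *gst-4* was at 0.61 and *gst-13* at −0.11, where *gst-13* no longer had an unadjusted p under 0.01 (adjusted p = 0.725 by limma-trend). The median log2 fold change, given as a description only, was 0.13 over the DAF-16 reporters and 0.14 over the SKN-1 reporters, against −0.01 over all genes. With the length trend removed these medians were 0.11 and 0.22, against 0.003 over all genes.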

How the data were processed

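Per the labels and methods, reads were trimmed with Trimmomatic 0.32, aligned with HISAT2 2.1.0 to WBcel235 (Ensembl release 91) and counted by strand with HTSeq 0.11.0. Genes were kept by the authors if over 2 counts were found in 3 or more samples. For the 17521 genes left the authors deposited log2 CPM from edgeR 3.26.8, scaled by its trimmed mean method (TMM), with an average prior count of 2 reads. The columns are named CPM, but values run below 0 and are on the log2 scale. No column with sample values was left unused.

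Since the table holds log2 values, limma 3.58.1 in R 4.3.3 was fitted to all 17521 genes. This was limma-trend, which models the variance by mean level. Tests were two-sided and p-values were adjusted by Benjamini-Hochberg. Thresholds were 0.05 (adjusted) and 0.01 (unadjusted). Counts at an unadjusted p of 0.05 are given in addition. The prior count makes fold changes of low genes too small. Whole reads were recovered by subtracting the lowest value, −4.15, on the linear scale and dividing by a fixed step for each sample. All values (100%) came within 0.1 of a whole read. CPM are these reads per 1000000 of normalized library size. limma-voom on these reads, the test used in the study, called 31 genes at an adjusted p of 0.05, as did limma-trend. Exact permutation tests were made over the 70 arrangements of the samples. Intervals of shares and ratios are 95% exact binomial and cover counting error only.

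Coordinates and exonic lengths come from Ensembl release 115 of WBcel235. The fit was also run on simulated reads as a check of the code, and no result here rests on it. Alternatives were limma-voom, no trend, sample weights, a common median, quantile normalization, a prior count of 0.5, a stricter filter (over 0 log2 CPM in 4 or more samples), removal of the length trend (lowess, span 0.3), a replicate block and each sample left out. The genes named are all members, list genes past either threshold, *daf-16* and *skn-1*, and the 3 genes most alike to each member. *vit-2* and *vit-6* were added after their values were seen. The members and lists were chosen with earlier results of these data known. Nothing in the labels says that samples came from separate cultures beyond being separately grown, so p-values measure the spread between these samples. No promoter or protein sequences were used here.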

Additional observations from a re-analysis of the deposited data

How the results depend on the processing

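Over 18 alternatives (17 for *sod-5*, which did not pass the stricter filter), none of the 8 genes passed an adjusted p of 0.05. *ctl-1*, *ctl-2*, *ctl-3*, *sod-3* and *sod-4* kept their direction in all of them. With the length trend removed the log2 fold change was 0.082 for *sod-1*, 0.024 for *sod-2* and 0.11 for *sod-5*, each with the sign turned. With single samples left out it ran from −0.13 to 0.042 for *sod-1* and from −0.43 to 0.23 for *sod-5*. *sod-5* was also at 0.0072 by limma-voom, 0.020 with a common median and 0.088 after quantile normalization. It had 3 to 16 reads per sample.

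The number of genes at an adjusted p of 0.05, 31, was 16 without the mean-variance trend, 139 with sample weights, 20 with the replicate block, 17 to 78 with single samples left out and 134 without both atracurium replicates 2 and 4, an alternative chosen after seeing the data. Single samples that moved it by over 1.5 times were atracurium replicates 2 (78) and 1 (17) and water replicates 2 (18) and 3 (20). At an unadjusted p of 0.01 the 538 genes became 1098 with sample weights, 306 to 883 with single samples left out and 977 without both of those replicates, with 883 without atracurium replicate 4, 311 without water replicate 2 and 306 without water replicate 3. The share of higher genes among the 538 was 39.0%, but 52.4% with a common median and 51.5% after quantile normalization. Scaling to a common median moved the median of all genes from −0.01 to 0.05. Same-numbered samples of the 2 groups did not deviate together (correlations −0.06 to 0.04), so the numbers were not taken as pairs. Depth limits *sod-5* most.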

Other observations

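Superoxide dismutases need copper, zinc or manganese and catalases need heme, and genes that handle these metals were listed as well. Of 13 measured (of 14 listed), 5 had positive and 8 negative log2 fold changes, with a median of −0.19, which was 0.05 after removal of the length trend. None passed an adjusted p of 0.05. The ferritin gene *ftn-1*, which stores iron, had the lowest p, with 15 to 33 reads with atracurium and 33 to 58 reads in the water vehicle (log2 fold change −0.94, adjusted p = 0.314 by limma-trend). It was at −0.71 with the length trend removed, with an unadjusted p over 0.01 (adjusted p = 0.498 by limma-trend). Of 9 genes for oxidant-producing enzymes and peroxidases of the cuticle, 6 had positive log2 fold changes, or 3 after removal of the length trend, and none had an unadjusted p under 0.01.

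Of the body wall muscle markers, 5 of 6 had positive log2 fold changes, with 3044 to 3568 CPM summed with atracurium and 2724 to 3156 CPM in the water vehicle. The myosin genes *myo-3* and *unc-54* had an unadjusted p under 0.01, where 1.20% of all genes were higher. Their log2 fold changes were 0.25 and 0.24 (adjusted p = 0.261 and 0.254 by limma-trend). With the length trend removed these genes were at 0.13 and 0.12, no longer under that cutoff (adjusted p = 0.613 and 0.622 by limma-trend). All 7 sperm markers measured had negative log2 fold changes (median −0.66), also with the length trend removed (median −0.37). Among them, the major sperm protein genes *msp-10* (−1.05) and *msp-78* (−0.66) had an unadjusted p under 0.01, where 328 of 17521 genes were lower. Their adjusted p values were 0.301 and 0.261 by limma-trend. With the length trend removed they were at −0.62 and −0.23, not under that cutoff (adjusted p = 0.645 and 0.724 by limma-trend). Of the oocyte and early embryo markers, 7 of 8 had positive log2 fold changes, with 9204 to 9999 CPM with atracurium and 8397 to 9233 CPM in the water vehicle. The sums for epidermis (1516 to 2229 CPM with atracurium, 1763 to 2094 CPM in the water vehicle) and neurons (256 to 298 CPM with atracurium, 274 to 307 CPM in the water vehicle) overlapped between the groups, as did those for muscle and oocytes.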
